A study of Mus musculus with 20 samples.

Results

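Cass4, Tgm2 and Fmo1 are 3 of the 39017 genes counted in microglia and astrocytes sorted from the forebrain of injured and sham mice. They were chosen by a readout of these same libraries: in each of them, all 5 microglia libraries from mice with fluid percussion injury (FPI) lay below all 5 from sham mice. That pattern held for 135 of the 12143 genes that passed the low-count filter in microglia, which is 1.11% of them. The microglia levels of the 3 genes after FPI and sham injury are therefore given as a description, without a test. Levels in astrocytes did not enter the choice, and FPI and sham were tested there. The difference between the cell types was tested as an average over sham and FPI. In this balanced design it is a separate contrast from FPI against sham, but it contains the microglia values that the rule used. It is also given for the sham libraries alone. The rule used the sham microglia values too, so those fits do not escape the choice.

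The mice were adult C57BL/6J males (C57BL/6 in the sample labels), aged 3 to 4 months, with no transgene. Both groups had a craniectomy over the left side, and FPI mice then received a fluid pulse against the exposed dura while sham mice did not. At 7 days the left (ipsilateral) forebrain was dissociated, and microglia (CD11b+, CD45 intermediate) and astrocytes (ACSA-2+) were collected by fluorescence-activated cell sorting. Each cell type and injury had 5 libraries, 20 in all.

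Cass4 encodes a member of the Cas family of scaffold proteins, which sit at focal adhesions and pass integrin signals to Src-family and focal adhesion kinases. Tgm2 encodes transglutaminase 2, an enzyme that crosslinks proteins between glutamine and lysine side chains, is released to the cell surface and matrix, and takes part in the clearance of apoptotic cells by macrophages. Fmo1 encodes a flavin-containing monooxygenase, which uses NADPH and oxygen to oxidize nitrogen and sulfur atoms in drugs and other small molecules. Microglia are the resident macrophages of the brain, and injury moves them from a surveying state, with a known set of homeostatic genes, towards a reactive one.

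The label under which the genes were grouped, lost in injured microglia, applied to 1 of the 3. Fmo1 was at 0 counts in all FPI microglia libraries, from a trace level in sham microglia. Cass4 and Tgm2 were still present in FPI microglia at 45.8% and 55.9% of their sham means. Levels are given as CPM, a gene's count relative to the size of its library, with library sizes scaled by the trimmed mean of M-values (TMM). They are compared between genes only after division by exon length.

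Total counts ran from 5623349 to 13110857 over the 20 libraries. The 10 microglia markers, among them Tmem119, P2ry12 and Cx3cr1, summed to 17350 to 28660 CPM in the microglia libraries. In the astrocyte libraries they summed to 104.2 to 260.1 CPM. Astrocyte markers summed to 10470 to 34130 CPM there, against 254.7 to 629.9 CPM in microglia, so both sets matched the cell type labels. The astrocyte libraries also held oligodendrocyte lineage markers, at 1819 to 16920 CPM in sham and 4089 to 11190 CPM in FPI. Endothelial and mural markers stood there at 1012 to 5889 CPM in sham and 380.3 to 7814 CPM in FPI. The part of these cells in the astrocyte levels of the 3 genes was not tested. FPI astrocyte library 5 has a name with the suffix used for microglia and with the same animal number as library 2 of its group, and the names of microglia libraries 4 and 5 of both groups follow another scheme than libraries 1 to 3. Titles and cell type labels were followed. By animal numbers in the names, 3 mice gave a library of each cell type, and the fits took all libraries as independent. Bulk libraries cannot tell fewer cells of a type from less RNA per cell.

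Cass4 (ENSMUSG00000074570) is a protein-coding gene on the + strand of mouse chromosome 2, at chr2:172393794-172433757 in GRCm38. The 250 bases before its RefSeq transcript start, chr2:172393394-172393643 on the + strand of GRCm38.p6, are shown because Cass4 was the only member with a promoter window. Cass4 also had the largest decrease in CPM relative to sham among the members that stayed detected. That start lies upstream of the GENCODE start of the gene and matches no GENCODE transcript. Capitals mark GGAAG, an ETS-type core, and this motif was picked after the sequence had been read.

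Cass4: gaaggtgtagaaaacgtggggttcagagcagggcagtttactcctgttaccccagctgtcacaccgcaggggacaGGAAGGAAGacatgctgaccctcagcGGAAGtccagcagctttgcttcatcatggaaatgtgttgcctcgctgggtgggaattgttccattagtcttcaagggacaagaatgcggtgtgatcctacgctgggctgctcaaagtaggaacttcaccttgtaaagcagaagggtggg

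GGAAG was found 3 times, at positions -175, -171 and -149 from the start, with the first and second sharing bases. It also occurs, on either strand, in 71.4% of the 32851 RefSeq promoter windows of 300 bases, so it does not set Cass4 apart. In the 300-base window of Cass4, which adds 50 bases past the start, no match on either strand was found for GAGGAA, the PU.1-type core (in 28.3% of all windows), TGANTCA (7.81%), the interferon-stimulated response element (3.44%), CAGACA (21.0%), TATAAA (13.6%) or AGGTCA (16.3%). The promoter table held 1 of the 3 genes, and no window was read for Tgm2 or Fmo1.

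In sham microglia, Cass4 stood at 65.3, 53.1, 56.5, 43.6 and 66.3 CPM in libraries 1 to 5. In FPI microglia it stood at 25.4, 24.8, 22.6, 35.8 and 21.9 CPM. FPI library 4 was the highest of its group and sham library 4 the lowest, and the 2 groups did not overlap: the lowest sham level was 1.22 times the highest FPI level. The means were 57.0 ± 9.37 CPM in sham and 26.1 ± 5.64 CPM in FPI microglia (SD, n = 5 each), and the fitted log2 fold change was -1.13 with a standard error (SE) of 0.175. These values rest on 162 to 750 counts per library.

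Cass4 was nearly confined to microglia among the 2 sorted populations. Of the 10 astrocyte libraries, 7 had 0 counts of it, and the others had 7 counts (sham library 5), 3 counts (FPI library 2) and 1 count (FPI library 3). In total this was 7 counts in sham and 4 in FPI astrocytes, too few for the low-count filter, so no FPI to sham fold is given there. Averaged over sham and FPI, Cass4 was higher in microglia than in astrocytes by 8.10 on the log2 scale (SE 0.449, edgeR quasi-likelihood test, adjusted p = 7.26e-13), a size that depends on the prior count because of the zeros. In the sham libraries alone the difference was 8.45 (SE 0.624, edgeR adjusted p = 1.56e-07). Cass4 entered these fits through its level in microglia only, since astrocytes had almost no counts, so it was bound to differ. Of 15077 genes in that fit, 27.1% were called higher in microglia and 37.2% lower, at an adjusted p below 0.1 and an absolute log2 fold change above 0.6.

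An antisense gene, Gm14455, overlaps 1130 bases (21.2%) of the Cass4 exons on the opposite strand. Gm14455 had 38 counts over sham and 25 over FPI microglia, against 2481 and 991 for Cass4. The strand setting of the counting is not given in the sources used here, so reads of the shared bases may not be told apart.

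The 3 other Cas family members had the opposite distribution. Bcar1 (p130Cas, the founding member) averaged 80.5 ± 24.7 CPM in sham astrocytes and 0.772 ± 0.704 CPM in sham microglia (SD, n = 5). Nedd9 averaged 34.6 ± 12.5 and 1.90 ± 0.920 CPM, and Efs 28.9 ± 7.94 and 0.541 ± 0.688 CPM. All 3 were lower in microglia over both injuries, with log2 fold changes of -6.25 (SE 0.372) for Bcar1, -3.89 (SE 0.297) for Nedd9 and -6.48 (SE 0.465) for Efs (edgeR, adjusted p = 2.25e-12, 1.33e-10 and 4.78e-11). Bcar1 and Efs entered that fit through their astrocyte level only, since microglia had few counts of them, so they were bound to differ. Only Nedd9 passed the filter in microglia alone, at 1.90 CPM in sham and 2.89 CPM in FPI (log2 fold change 0.61, SE 0.635, edgeR adjusted p = 0.825).

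Around Cass4, the list of 28 other Cas and focal adhesion genes (integrins, focal adhesion and Src-family kinases, adaptors) had 26 tested members in microglia. Of these, 1 was called higher after FPI, against 2.13% of all tested genes, and 0 lower, against 0.214%; DESeq2 also called 1 and 0, and 4 had an unadjusted p under 0.05. The gene that rose was Fyn, a Src-family kinase, which averaged 17.3 ± 2.32 CPM in sham and 34.4 ± 5.65 CPM in FPI microglia (n = 5 each, SD). Its log2 fold change was 0.99 (SE 0.184, edgeR adjusted p = 0.00505). The median log2 fold change of the list was -0.01, as over all genes (-0.01).

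Tgm2 (ENSMUSG00000037820) lies on the − strand of chromosome 2, at chr2:158116402-158146436 in GRCm38. In sham microglia it stood at 117.2, 106.2, 103.6, 71.2 and 93.5 CPM in libraries 1 to 5. In FPI microglia it stood at 47.6, 53.5, 65.8, 51.3 and 56.7 CPM. The sham libraries spread more widely than the FPI libraries, and the gap between the groups was narrow, since the lowest sham level, in library 4, was 1.08 times the highest FPI level, in library 3. The means were 98.3 ± 17.4 CPM in sham and 55.0 ± 6.885 CPM in FPI microglia (SD, n = 5). The fitted log2 fold change was -0.84 with an SE of 0.146.

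Tgm2 was also detected in the astrocyte libraries, at lower and more variable levels. The sham astrocyte libraries held 3.90, 14.5, 15.9, 11.96 and 19.9 CPM and the FPI astrocyte libraries 2.84, 10.95, 17.2, 15.7 and 30.04 CPM. The ranges overlapped along most of their length, library 1 was the lowest of both groups, and the highest value came from FPI library 5, the library with the doubtful name. The astrocyte means were 13.2 ± 5.94 CPM after sham and 15.3 ± 9.94 CPM after FPI (SD, n = 5). The log2 fold change of 0.21 (SE 0.514, 95% interval -0.98 to 1.39) did not pass the test (edgeR adjusted p = 0.9994), and an exact permutation test of log2(CPM + 1), two-sided, gave p = 0.913, where the smallest p that 5 against 5 libraries allow is 0.00794. The interval includes the size of the difference seen in microglia. In the astrocyte comparison 1 of 13741 genes, 0.00728%, was called in either direction (Ctss, cathepsin S). The 10 microglia markers summed to 104.2 to 176.0 CPM in sham and 122.1 to 260.1 CPM in FPI astrocytes. Of the 6 tested there, edgeR called 0 (median log2 fold change 1.94, 3 at an unadjusted p under 0.05), and DESeq2 called 3 higher, among them Cx3cr1 (0.744 ± 0.563 CPM in sham and 7.82 ± 4.46 CPM in FPI, SD, n = 5, edgeR adjusted p = 0.215). Endothelial and mural markers summed to 1012 to 5889 CPM in sham and 380.3 to 7814 CPM in FPI astrocytes. The part of RNA from microglia, endothelial, mural or oligodendrocyte lineage cells in the astrocyte level of Tgm2 was not tested.

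Over both injuries Tgm2 was higher in microglia than in astrocytes by 2.34 on the log2 scale (SE 0.289, edgeR adjusted p = 2.59e-07), and all 10 microglia libraries lay above all 10 astrocyte libraries. The difference was 2.92 in the sham libraries alone (SE 0.326, edgeR adjusted p = 5.83e-06) and 1.80 in the FPI libraries alone (SE 0.434, adjusted p = 0.00296). The ratio of means between the cell types was 7.44 in sham and 3.58 in FPI mice.

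Exons of Tgm2 overlap those of other genes. Rprd1b, on the + strand, shares 370 bases (8.03%) of the Tgm2 exons, and Gm20412, also on the + strand, shares 633 bases (13.7%) but had 0 counts in microglia. Rprd1b, a regulator of RNA polymerase II, averaged 37.6 ± 7.52 CPM in sham and 25.0 ± 5.26 CPM in FPI microglia (SD, n = 5; log2 fold change -0.59, SE 0.193, edgeR adjusted p = 0.152). The part of either gene's reads in the other's count was not tested.

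Among the other transglutaminases, F13a1, the A subunit of coagulation factor XIII, is also a marker of border macrophages. It ranged from 2.53 to 91.4 CPM in sham and from 0.469 to 47.7 CPM in FPI libraries, with means of 46.2 ± 42.6 and 22.1 ± 18.9 CPM (SD, n = 5; edgeR adjusted p = 0.716). Tgm1 averaged 2.04 ± 2.05 CPM in sham and 2.13 ± 1.42 CPM in FPI microglia (edgeR adjusted p = 0.992). In astrocytes Tgm1 had 7 counts over the sham group and 100 over the FPI group. It missed the filter of the edgeR fit there, and DESeq2 called it higher. Tgm3, Tgm4, Tgm5, Tgm6 and Tgm7 had at most 9 counts in any microglia group.

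The list of 25 Tgm2 partners and genes of apoptotic cell clearance (integrins, matrix proteins, bridging molecules and engulfment receptors) had 21 tested members in microglia, of which 2 were called higher (2.13% of all tested genes) and 0 lower (0.214% of all); DESeq2 gave the same counts, and 5 had an unadjusted p under 0.05. Axl, a receptor for phosphatidylserine-bound Gas6 on dying cells, rose by 2.48 on the log2 scale (SE 0.221, edgeR adjusted p = 7.88e-06), with means of 46.2 ± 13.6 CPM in sham and 256.8 ± 73.9 CPM in FPI microglia (SD, n = 5). Fn1, fibronectin, a matrix protein to which transglutaminase 2 binds, rose by 1.84 (SE 0.374, edgeR adjusted p = 0.00959), with means of 24.9 ± 9.76 and 89.6 ± 63.1 CPM and ranges that overlapped. Fn1 was no longer called with robust dispersion or with all 20 libraries in the fit. Tgm2 and these 2 genes thus had opposite directions in the same libraries. The median of the list was 0.05 (all genes: -0.01).

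Fmo1 (ENSMUSG00000040181) lies on the − strand of chromosome 1, at chr1:162829561-162866610 in GRCm38, and no other annotated gene overlaps it. Sham microglia libraries 1 to 5 held 30, 20, 28, 14 and 8 counts of it, which are 3.88, 1.42, 3.20, 1.57 and 1.56 CPM. Each of the 5 FPI microglia libraries held 0. At the pooled sham level of 2.24 CPM, the FPI libraries would have held 14.3 to 19 counts each and 86.3 together.

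The sham mean was 2.32 ± 1.14 CPM (SD, n = 5), above that of 10.1% of the tested genes, and Fmo1 passed the low-count filter through the sham group alone. A total of 0 counts allows up to 3 counts over the FPI group, or 0.0778 CPM, so Fmo1 was at least 28.8-fold lower in FPI than in sham microglia. This limit covers counting error only, and reads from PCR are not independent molecules. It was computed from the microglia values for which Fmo1 was chosen, so it is a description and not a test. Fmo1 was the only tested gene with 0 counts in all 5 FPI libraries. Without the filter, 7 genes had a count in every sham and 0 in every FPI microglia library, and 2 genes had the reverse. After Fmo1, with 100 sham counts in all, the next of the 7 was Spata33 with 25.

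**Figure D1:**
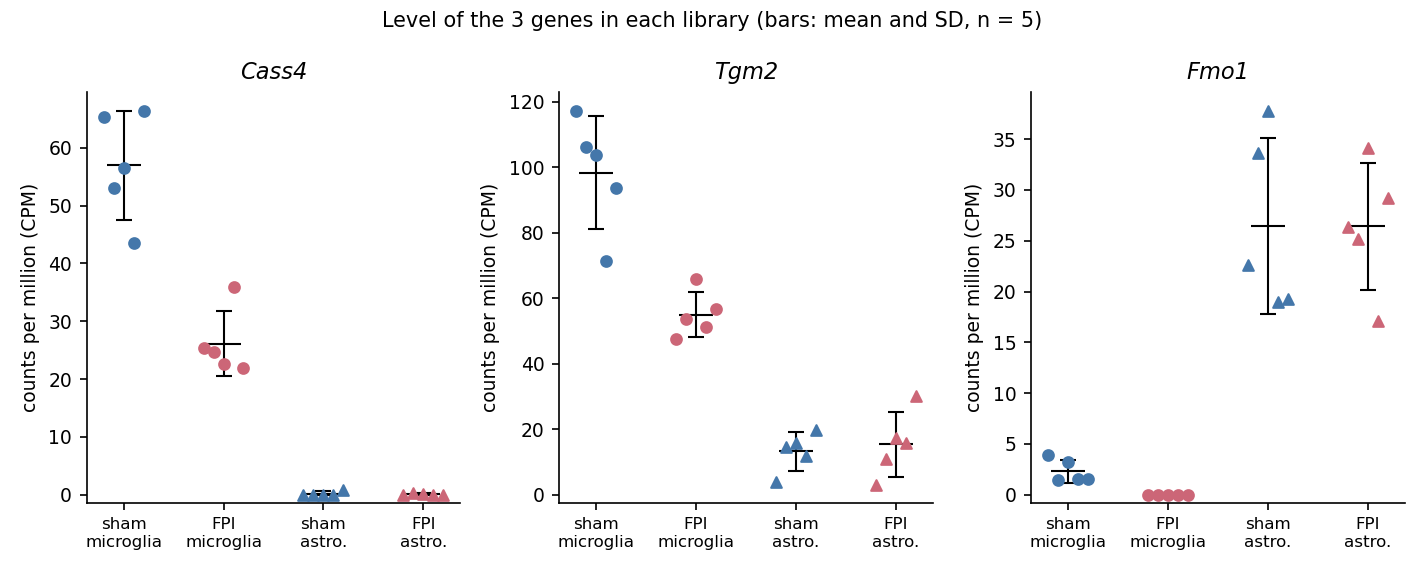
Level in CPM (vertical axes, each from 0) of Cass4, Tgm2 and Fmo1 in every library of the 4 groups, with circles for microglia, triangles for astrocytes, blue for sham, red for FPI, and bars for the mean and SD of 5 libraries. Sham and FPI microglia do not overlap for any of the 3 genes, which is how they were chosen. In astrocytes Fmo1 and Tgm2 overlap between injuries and Cass4 is at or near 0.

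Fmo1 was found mainly in the astrocyte libraries. Sham astrocyte libraries stood at 22.6, 33.65, 37.8, 18.99 and 19.2 CPM and FPI astrocyte libraries at 26.3, 25.2, 34.1, 17.1 and 29.2 CPM. Both groups covered nearly the same range. The means were 26.4 ± 8.69 CPM after sham and 26.4 ± 6.25 CPM after FPI (SD, n = 5). The log2 fold change was -0.0049 (SE 0.245, 95% interval -0.57 to 0.56, edgeR adjusted p = 0.9994), and the exact permutation test, two-sided, gave p = 0.897. The interval leaves out a decrease of the size of the lower limit in microglia, a limit drawn from the values that chose Fmo1.

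In the sham libraries alone Fmo1 was lower in microglia than in astrocytes, with a log2 fold change of -3.49 (SE 0.349, edgeR adjusted p = 2.18e-06), and the microglia level was 8.78% of the astrocyte level. Averaged over both injuries the log2 fold change was -7.18 (SE 0.363, edgeR adjusted p = 5.62e-12), but that size rests on the FPI microglia zeros for which Fmo1 was chosen and on the prior count. All 5 sham microglia libraries lay below all 10 astrocyte libraries.

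Because Fmo1 was higher in astrocytes, its level in the microglia libraries was set beside that of 10 astrocyte markers. In sham microglia these markers stood at 0.506% (Gjb6) to 4.19% (Slc1a3) of their sham astrocyte level, so the 8.78% of Fmo1 was above each of them. In FPI microglia the markers stood at 1.04% to 5.2% of their FPI astrocyte level, and Fmo1 at 0. Both percents of Fmo1 rest on the microglia values for which it was chosen, so this comparison is a description and not a test. Summed, the 10 markers ran from 254.7 to 365.2 CPM in sham and from 313.0 to 629.9 CPM in FPI microglia. By set, they ran from 263.9 to 363.5 CPM in sham and from 371.4 to 629.9 CPM in FPI libraries 1 to 3, and from 254.7 to 365.2 and from 313.0 to 319.1 CPM in libraries 4 and 5. All 10 had a positive log2 fold change in microglia, with a median of 0.76, and 1, Gfap, was called higher (6.30 ± 5.11 CPM in sham and 42.5 ± 35.2 CPM in FPI, SD, n = 5, edgeR adjusted p = 0.00772), a call lost with robust dispersion. The part of astrocyte RNA in the Fmo1 counts of the microglia libraries was not tested.

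**Figure D2:**
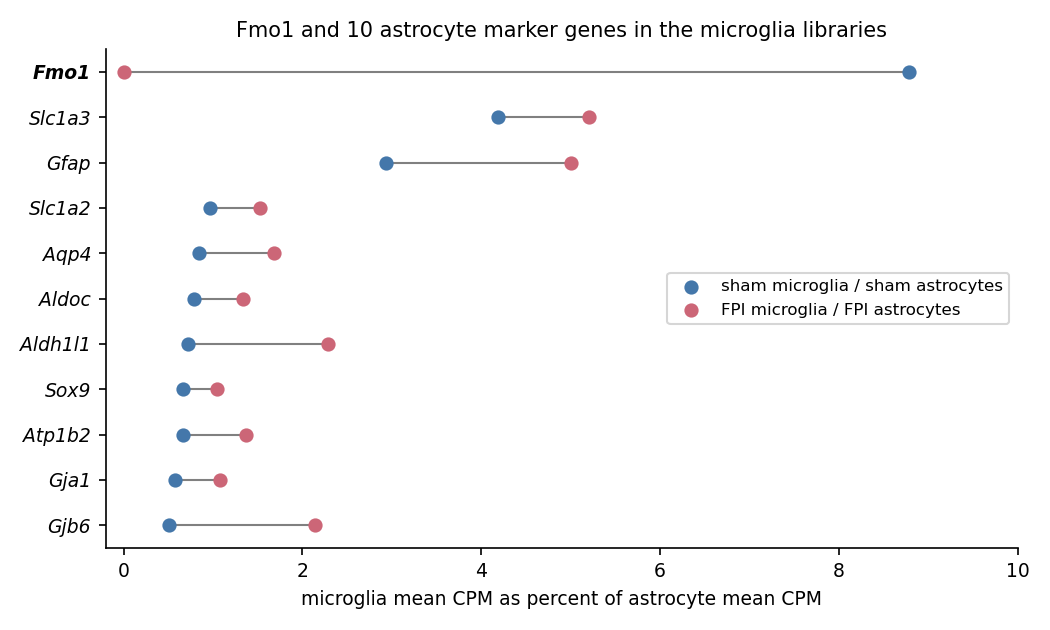
Mean CPM in microglia as a percent of the mean CPM in astrocytes (horizontal axis) for Fmo1 and 10 astrocyte markers, in sham mice (blue) and FPI mice (red). Fmo1 goes from 8.78% to 0, while each marker is at a higher percent in FPI than in sham mice. The microglia values of Fmo1 are those for which it was chosen.

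Of the other flavin monooxygenases, Fmo5 was detected in both cell types. It averaged 19.8 ± 5.07 CPM in sham and 17.1 ± 7.21 CPM in FPI microglia (SD, n = 5; log2 fold change -0.20, SE 0.262, edgeR adjusted p = 0.866) and 15.03 ± 3.095 and 13.2 ± 1.71 CPM in astrocytes. Fmo2 had 13 counts over sham and 2 over FPI microglia. Fmo4 had counts in astrocytes alone, 24 after sham and 10 after FPI, and Fmo6 and Fmo9 were at 0 in all 20 libraries. Of 22 other genes of phase I and NADPH-linked oxidation, 16 were tested in microglia and 0 were called by edgeR or DESeq2 (2.13% of all tested genes were called higher and 0.214% lower by edgeR), with 3 at an unadjusted p under 0.05 and a median log2 fold change of 0.12.

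**Figure D3:**
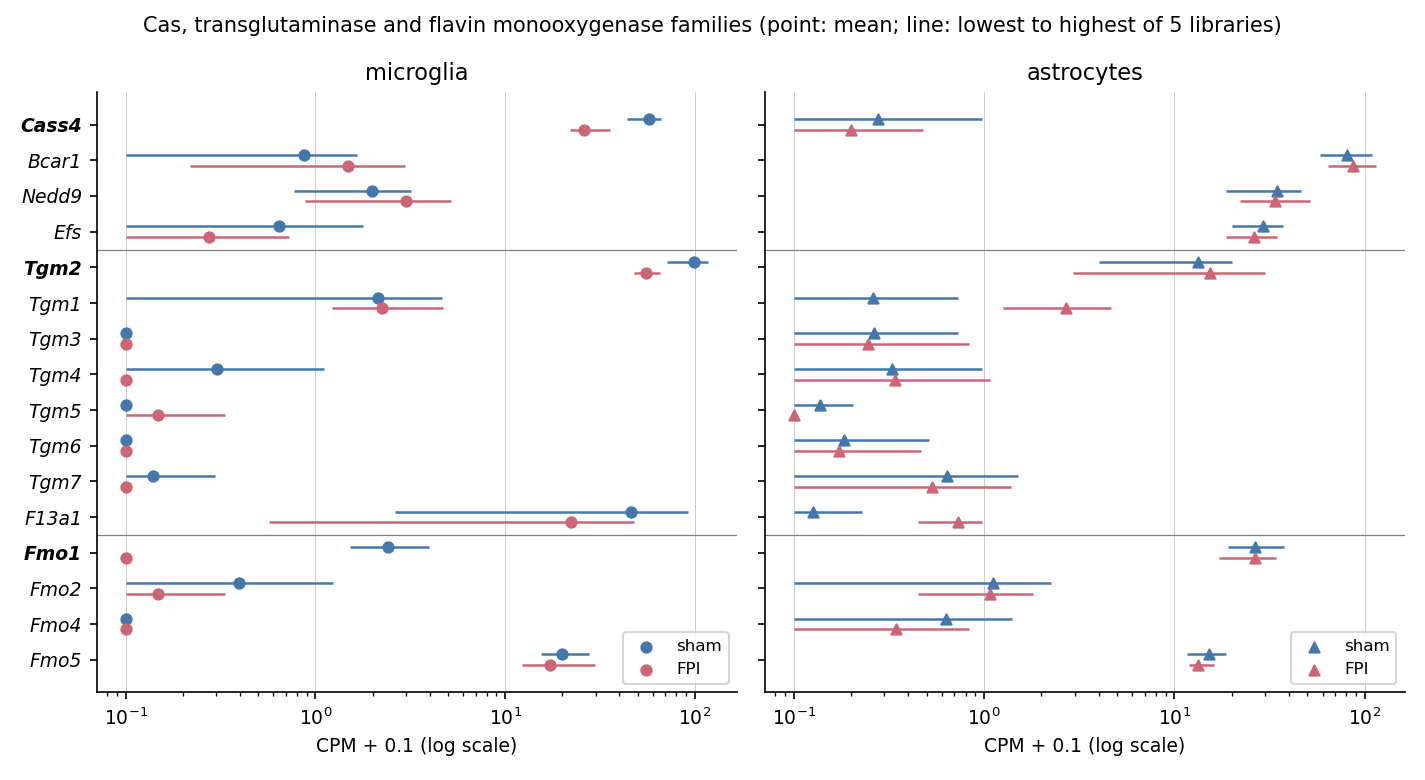
Level of the genes of the Cas, transglutaminase and flavin monooxygenase families that had a count in any library, as CPM + 0.1 on a log axis, in microglia (left) and astrocytes (right), with points for the mean and lines from the lowest to the highest of 5 libraries, blue for sham and red for FPI. Levels are not divided by exon length, so genes are read across groups and cell types, not against each other. Bcar1, Nedd9, Efs and Fmo1 are higher in astrocytes than in microglia, and Cass4, Tgm2 and F13a1 are higher in microglia, by their means.

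Per kilobase of exon, the order of mean levels in sham microglia was Tgm2 (21.3 ± 3.77 CPM per kb), Cass4 (10.7 ± 1.75) and Fmo1 (0.368 ± 0.181; SD, n = 5), with no overlap between neighbours. The same order held in FPI microglia, at 11.9 ± 1.49, 4.89 ± 1.06 and 0 CPM per kb. In sham astrocytes the order was Fmo1 (4.19 ± 1.38), Tgm2 (2.87 ± 1.29) and Cass4 (0.0329), and there Fmo1 and Tgm2 did not differ beyond their spread. In FPI astrocytes Fmo1 (4.19 ± 0.991) and Tgm2 (3.33 ± 2.16) overlapped as well.

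Since no FPI library overlapped a sham library by choice, the direction within any subset of the microglia libraries was fixed, and the naming schemes are compared for size only. In libraries 1 to 3 the log2 ratio of FPI to sham means was -1.27 for Cass4 and -0.97 for Tgm2, and in libraries 4 and 5 it was -0.93 and -0.61. Fmo1 averaged 2.83 CPM in sham libraries 1 to 3 and 1.56 CPM in sham libraries 4 and 5, and 0 in both sets of FPI libraries.

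These sets of libraries differed in markers of border macrophages (Mrc1, Cd163, Lyve1 and others), cells that also carry CD11b and that the gate on intermediate CD45 is meant to leave out. Summed over 9 of the 10 markers, leaving out Stab1 because microglia express it, they stood at 311.5 to 505.9 CPM in sham libraries 1 to 3 and at 24.3 to 33.3 CPM in sham libraries 4 and 5. In FPI microglia they stood at 179.5 to 389.5 and 62.6 to 128.6 CPM. The marker ranges of sham and FPI thus overlapped in libraries 1 to 3, with the highest sum in sham and the lowest in FPI, and in libraries 4 and 5 both FPI sums were above both sham sums. Their part in the levels of the 3 genes was not tested. Over all libraries 2 of the 10 markers, Siglec1 and Folr2, were called higher (2.13% of all tested genes) and 0 lower (0.214%) by edgeR and likewise by DESeq2, with 3 at an unadjusted p under 0.05. The call of Folr2 was lost when any of 8 libraries was left out and with the replicate block (adjusted p = 0.164, edgeR), that of Siglec1 without sham library 2 or FPI library 1 and with robust dispersion, and both in the fit to all 20 libraries. Mrc1 averaged 152.0 ± 131 CPM in sham and 91.6 ± 67.3 CPM in FPI libraries (SD, n = 5, edgeR adjusted p = 0.773).

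**Figure D4:**
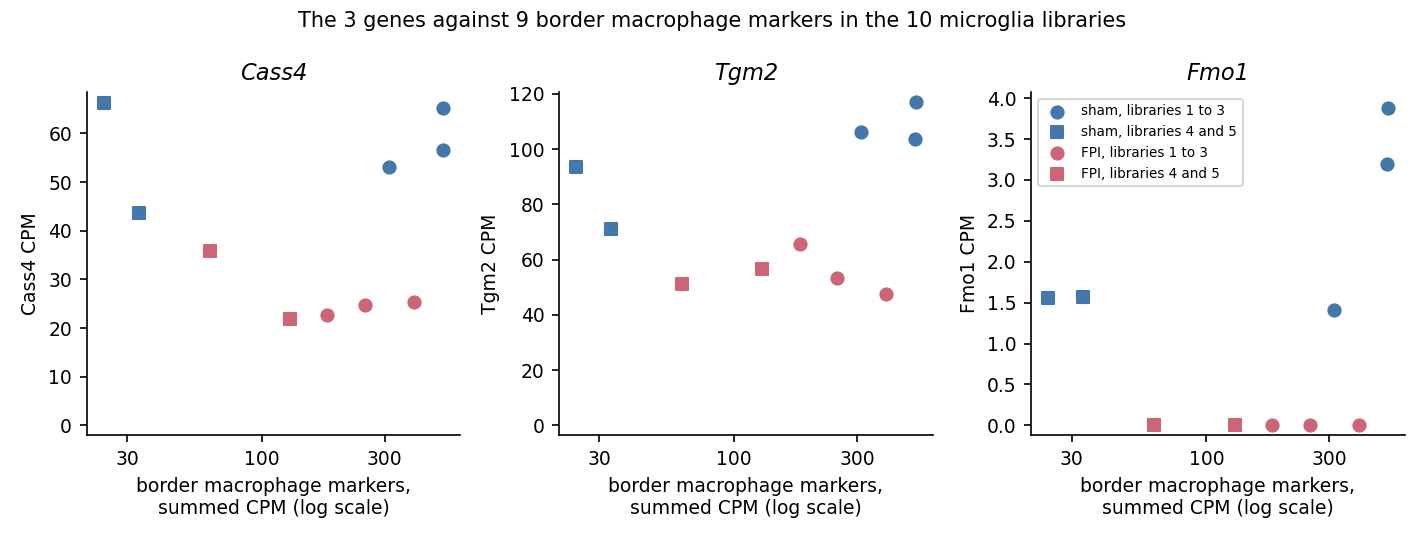
Level of Cass4, Tgm2 and Fmo1 in CPM (vertical axes) against the summed CPM of 9 border macrophage markers (horizontal axes, log scale) in the 10 microglia libraries, with circles for libraries 1 to 3, squares for libraries 4 and 5, blue for sham and red for FPI. Along the horizontal axis the sham libraries form 2 sets, at 24.3 to 33.3 CPM and at 311.5 to 505.9 CPM, with the FPI libraries at 62.6 to 389.5 CPM between and beside them. The vertical separation of sham and FPI is how the genes were chosen.

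Markers of other cell types reached at most 273.9 CPM in sum in the microglia libraries. Endothelial and mural markers summed to 96.0 to 118.1 CPM in sham and 95.7 to 130.8 CPM in FPI libraries, and oligodendrocyte lineage markers to 135.1 to 190.9 and 185.1 to 273.9 CPM, with Cspg4 called higher (not in the fit to all 20 libraries). Monocyte and neutrophil markers reached at most 25.2 CPM, with Ly6c2 and Ly6g at 0 in all 10 libraries, neuron markers 11.2 CPM and lymphocyte markers 0.559 CPM. The part of any of these cells in the levels of Cass4, Tgm2 and Fmo1 was not tested.

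By the edgeR fit, 26 genes (0.214% of 12143) were called lower in FPI microglia, and Cass4, Tgm2 and Fmo1 had the 3 smallest p-values among them, which restates the contrast that chose them. Of the 26, 19 (73.1%) had all FPI libraries below all sham libraries. By the log2 gap between the lowest sham and the highest FPI library, Fmo1 ranked 1, Cass4 7 and Tgm2 43 of the 135 genes without overlap. Just inside the rule among the called genes was P2ry13, with 605.0 CPM in the lowest sham and 603.2 CPM in the highest FPI library, and just outside was Sema4b, with 44.1 and 44.4 CPM.

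The other called genes without overlap that are named here ran from near the change of Cass4 down to near the fold threshold. Bank1, a scaffold protein first described in B cells, averaged 80.0 ± 17.5 CPM in sham and 39.6 ± 11.8 CPM in FPI microglia (SD, n = 5; log2 fold change -1.02, SE 0.195, edgeR adjusted p = 0.00607). Mtss1, an actin- and membrane-binding protein, had a log2 fold change of -0.64 (SE 0.122, edgeR adjusted p = 0.00585) and Prkca, protein kinase C alpha, one of -0.69 (SE 0.137, adjusted p = 0.00846). The next 7 by p, Myo18b, 0610009O20Rik, Camk2n1, Zfp324, Ccdc162, Ecscr and Prkab1, had log2 fold changes between -1.08 and -0.60. In the fit to all 20 libraries, 8 of these 10 genes, all but 0610009O20Rik and Zfp324, kept their direction and were no longer called. With single libraries left out, the call was lost for Ecscr (5 of 10 libraries), Prkab1 (4), Zfp324 and Ccdc162 (2 each), and Mtss1 and Camk2n1 (1 each).

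**Figure D5:**
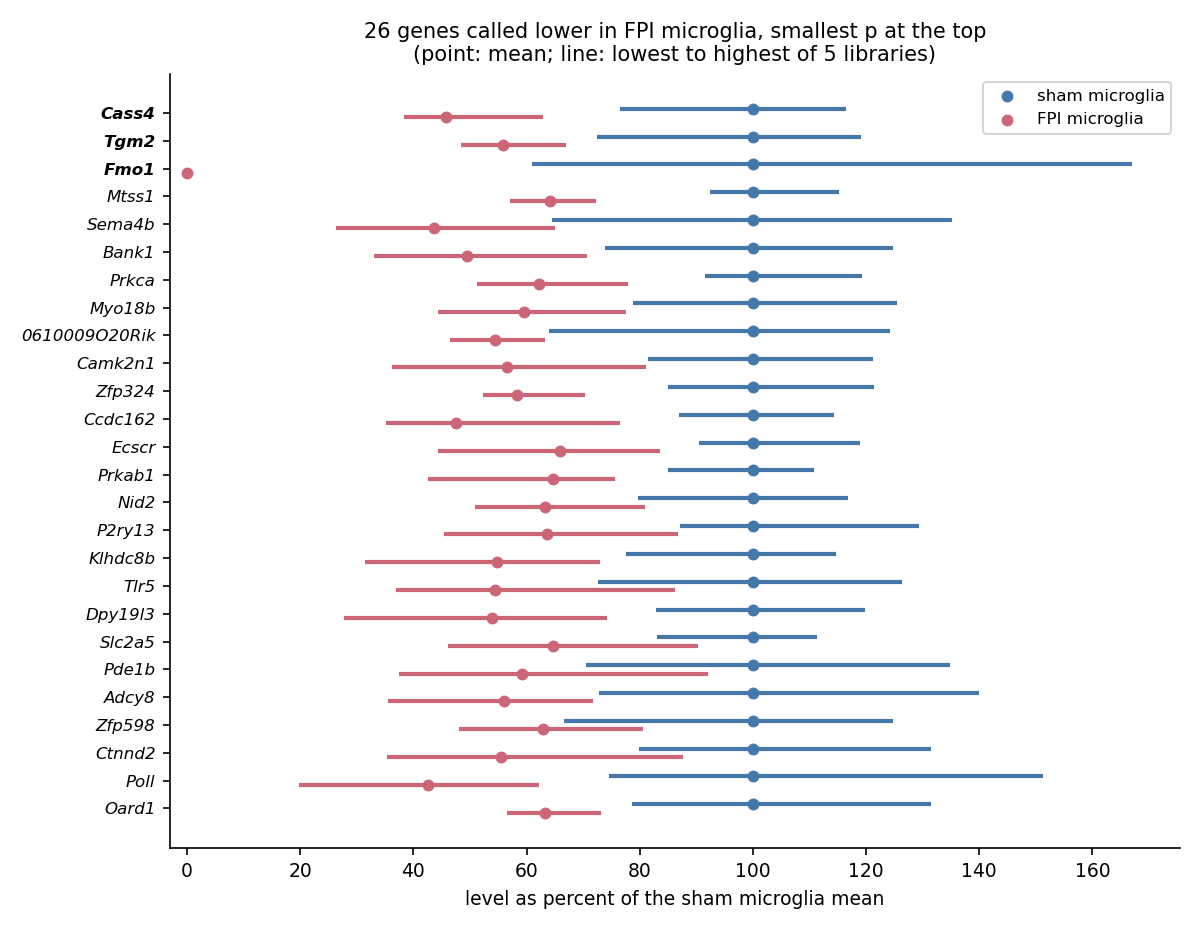
The 26 genes called lower in FPI microglia, ordered by p, with the level as a percent of each gene's sham mean (horizontal axis), points for the mean and lines from the lowest to the highest of 5 libraries, blue for sham and red for FPI. Cass4 (45.8%) and Tgm2 (55.9%) lie among the other genes, and Fmo1 is the only gene at 0.

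Among 29 measured homeostatic microglial genes, 2 were called lower, the purinergic receptor P2ry13 and the fructose transporter Slc2a5, against 0.214% of all tested genes, and 0 higher, against 2.13%; DESeq2 gave the same counts, and 10 had an unadjusted p under 0.05. P2ry13 averaged 694.7 ± 120 CPM in sham and 441.4 ± 123 CPM in FPI microglia (SD, n = 5; log2 fold change -0.65, SE 0.167, edgeR adjusted p = 0.0493). Slc2a5 averaged 309.5 ± 34.2 and 199.9 ± 62.97 CPM (log2 fold change -0.63, SE 0.170, edgeR adjusted p = 0.0651). Both calls were lost when single libraries were left out, P2ry13 for 6 and Slc2a5 for 7 of the 10 libraries, and in the fit to all 20. The log2 fold change was negative for 26 of the 29 genes, with a median of -0.19 against -0.01 over all genes.

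The genes whose microglia profile was most like each member were found by the root mean square difference of centred log2(CPM + 0.5) over the 10 microglia libraries, among 12142 genes. The 10 libraries share the injury groups, so likeness partly repeats the choice of the members. Nearest to Cass4 were Ccdc162 (0.216), Trappc5 (0.280) and Noc4l (0.302), of which Ccdc162 was itself called lower, with 17.0 ± 1.71 CPM in sham and 8.05 ± 2.89 CPM in FPI microglia (SD, n = 5). Nearest to Tgm2 were Txnip (0.171), Hlf (0.192) and Dok3 (0.194). Txnip, the thioredoxin-interacting protein, averaged 533.1 ± 73.6 CPM in sham and 363.0 ± 38.6 CPM in FPI microglia and missed the fold threshold (log2 fold change -0.55, SE 0.124, edgeR adjusted p = 0.0203).

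Nearest to Fmo1 were Kcnj16 (0.678), Arl16 (0.708) and Sema4b (0.709), at larger distances than for Cass4 and Tgm2. Kcnj16, an inward rectifier potassium channel subunit, averaged 3.35 ± 1.25 CPM in sham and 0.571 ± 0.530 CPM in FPI microglia (SD, n = 5; log2 fold change -2.53, SE 0.838, edgeR adjusted p = 0.162) and 90.4 CPM in sham astrocytes. DESeq2 called Kcnj16 lower in FPI microglia (adjusted p = 0.0317), as did edgeR in the fit to all 20 libraries (adjusted p = 0.0923). Between the members the distance was 0.315 for Cass4 and Tgm2, 0.739 for Cass4 and Fmo1, and 0.850 for Tgm2 and Fmo1.

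None of the nearest tested genes on either side of the 3 members was called in microglia (edgeR; 2 of the 6 had an unadjusted p under 0.05, Cstf1 and Rprd1b, and DESeq2 also called none). Next to Cass4 lay Cstf1 (11.3 kb away, log2 fold change -0.52, SE 0.231, edgeR adjusted p = 0.380) and Rtfdc1 (6.8 kb, -0.18). Next to Tgm2, beside Rprd1b, lay 9430008C03Rik (207 kb, -0.07), and next to Fmo1 lay Prrc2c (89 kb, 0.06) and Gorab (518 kb, -0.18).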

How the data were processed

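RNA-seq counts from 20 libraries (5 each of sham and FPI microglia and astrocytes) were used. Libraries were made with a stranded total RNA kit for picogram input, and the submitters' processing notes name bcl2fastq, HISAT2 2.1.0 and featureCounts, with the GRCm38 (mm10) build. The authors deposited whole-number read counts per gene, not normalized, for 39017 Ensembl identifiers in one table, and the strand setting of the counting is not given in the sources used here. Of these identifiers, 37693, holding 99.83% of the counts, matched GENCODE M21, which gave positions and exon lengths.

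Counts were tested with edgeR 4.0.16 in R 4.3.3 (filterByExpr, TMM, quasi-likelihood F-test, Benjamini-Hochberg adjustment over all tested genes), fitted to the microglia libraries, the astrocyte libraries, or all 20 for the cell type contrast averaged over sham and FPI. The study's own cut-offs were used, with a gene called at an adjusted p below 0.1 and a log2 fold change beyond 0.6 in size. The study itself used DESeq2 on counts estimated from transcript abundances, and it reported more genes in both cell types at these cut-offs. The filter left 12143, 13741 and 15077 genes. P-values measure the spread between libraries. The script was tested on simulated data. Of genes changed by 1 on the log2 scale, it called 62% in microglia and 30% in astrocytes. Of genes changed by 2, it called 89% and 80%. It also called 10 unchanged genes in microglia and 11 in astrocytes. A fold against a group at 0 was bounded with 3 counts over the group. DESeq2 1.42.0 was an alternative, as were other scaling, filters, dispersion, a replicate block, a term for the naming scheme of the libraries, FPI astrocyte libraries 2 and 5 summed, and leaving out each library. The cell type contrast within sham or FPI alone was added after seeing the data.

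The 3 members and the gene lists were chosen with earlier results of these data known. The genes named were the members, their families, up to 4 called genes per list and direction, the 3 genes most like each member, the nearest tested neighbours, and up to 10 further called genes without overlap. Spata33, Ctss and the GGAAG motif were added after their values or matches were seen, as was Kcnj16's astrocyte level and the sum of border macrophage markers without Stab1. Some genes of the lists are not reported here.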

Additional observations from a re-analysis of the deposited data

Results flagged for a closer look

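In the 5 FPI microglia libraries, Cass4 was 35.8 CPM in library 4 against 21.9 to 25.4 CPM in the others. The gap from library 4 to the nearest other library was 0.748 of the whole range of the group, above Dixon's critical value for 5 samples. About 1 in 20 groups is flagged by chance. Library 4 still lay below the lowest sham library, at 43.6 CPM.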

How the results depend on the processing

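The direction of the members' microglia values was fixed by the way they were chosen, and their size moved little, with log2 fold changes of -1.14 to -1.12 for Cass4 and -0.85 to -0.83 for Tgm2 (-1.27 to -1.07 and -0.94 to -0.77 with single libraries left out) and a log2 lower limit for Fmo1 of 4.83 to 4.87 (4.49 to 5.07). The cell type differences of all 3 kept their direction and call in every setting, with log2 fold changes of 7.79 to 9.92 for Cass4, 1.80 to 2.92 for Tgm2 and -10.73 to -3.49 for Fmo1. The outer values of Tgm2 and Fmo1 came from fits to the sham or the FPI libraries alone, chosen after seeing the data, in which Tgm1, called higher in microglia over both injuries (1.64), changed sign and lost its call in FPI (-0.32). However, the number of genes called higher in microglia was 2137 with at least 10 counts required in every library, against 4079. That filter removed Cass4 and Fmo1, which then had no cell type value. The count of genes called lower in FPI microglia, 26, became 54 by DESeq2, 43 when all genes having 1 count or more were kept, and 11 to 51 with single libraries left out. It was 11 without sham library 2, 13 without sham library 1, sham library 3 or FPI library 2, 44 without FPI library 5 and 51 without FPI library 3. The count called in astrocytes, 1, became 39 by DESeq2, 9 when all genes having 1 count or more were kept, 0 with at least 10 counts in every library, with robust dispersion or with FPI libraries 2 and 5 summed, 53 with all 20 libraries fitted together, and 0 to 3 with single libraries left out. The cause of these shifts was not tested. In astrocytes Fmo1 changed sign around 0, at 0.000281 with RLE factors, 0.0204 as the mean difference of the permutation test, and -0.12 to 0.13 with single libraries left out, and Tgm2 ran from -0.19 (without FPI library 5) to 0.46. With single libraries left out, uncalled genes also changed sign, in microglia Tgm1 (-0.45 to 0.58), 9430008C03Rik (-0.29 to 0.12), Prrc2c (-0.0236 to 0.15) and Gorab (-0.38 to 0.0141), and in astrocytes Bcar1 (-0.0111 to 0.24) and Nedd9 (-0.25 to 0.0907).

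Replicate numbers were checked as pairs. Same-numbered sham and FPI libraries correlated at -0.07 to 0.09 in microglia. In astrocytes replicate 2 was at -0.0093 and the other 4 at 0.245 to 0.45, not all above 0.1, so the numbers were not taken as pairs. With the replicate block, 23 genes were called lower in microglia and 11 in astrocytes, Fmo1 in astrocytes was 0.017, and Cass4 and Tgm2 in microglia were -1.14 and -0.83.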
